A study of Homo sapiens with 4 samples.

Results

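The NSL (non-specific lethal) complex is a histone acetyltransferase complex of 9 subunits examined here, KANSL1, KANSL2, KANSL3, KAT8, MCRS1, PHF20, HCFC1, OGT and WDR5. All 9 were found by their gene name among 13036 genes, and they comprised 35 of the 38510 transcripts listed. KANSL3 was put forward for the size of its difference between control and knockdown cells in these samples, and its partners were taken by their membership of the complex with that result known. Values of the 9 genes in this comparison are therefore given as a description with no test, and the question was whether KANSL3 moved with its complex.

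RNA was sequenced from HCCLM3, a human hepatoma cell line, infected with a lentivirus expressing a short hairpin RNA, which was a control sequence (shCtrl) or one targeting KIAA1429 (shKIAA1429), with 2 samples in each group. Both groups thus carried a hairpin vector, and knockdown rested on a single hairpin sequence. KIAA1429, listed as VIRMA, belongs to the writer complex that places N6-methyladenosine (m6A) in RNA. The values were FPKM, mapped fragments scaled to transcript length and library size, for each annotated transcript, and a gene's level was the sum over its listed transcripts. No label says that replicates came from separate cultures, so errors measure only the spread between these samples.

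In the NSL complex, KAT8 is the catalytic subunit and acetylates histone H4. KANSL1 is the scaffold that binds KAT8 and WDR5, KANSL2 and KANSL3 are core subunits, and PHF20 reads methylated lysine through Tudor domains. The complex is known for acting at promoters of housekeeping genes, and KANSL3 and MCRS1 are also known to bind spindle microtubules in mitosis. HCFC1, OGT and WDR5 work in other complexes as well: HCFC1 is a transcriptional co-regulator, OGT attaches N-acetylglucosamine to serine and threonine, and WDR5 is a core subunit of the COMPASS histone methyltransferases.

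KANSL3 was represented by 2 transcripts on the minus strand of chromosome 2 (GRCh37, chr2:97258909-97304046 for the longer). KANSL3-206 (ENST00000431828.5_1) is the protein-coding one of these 2, with 21 exons, 5156 exonic bases and 2634 coding bases in GENCODE 44. KANSL3-218 (ENST00000487070.5_1) is a processed transcript with no defined coding region. GENCODE 44 annotates 21 KANSL3 transcripts, of which 3 are protein coding, 11 are targets of nonsense-mediated decay and 4 retain an intron. The 11 decay and 4 intron-retaining transcripts of KANSL3 were not analysed here. In the files' own type column, 0 of the 38510 transcripts were named nonsense_mediated_decay or retained_intron, although GENCODE 44 calls 251 of them targets of nonsense-mediated decay, none of these among the 35 of the NSL genes. KANSL3 had the most annotated decay transcripts of the 9 genes, with 5 for OGT, 4 for KANSL2, 2 for MCRS1, 1 for PHF20 and 0 for the other 4.

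The annotated decay transcript nearest to KANSL3-206, KANSL3-201, contained all 5156 of its exonic bases. The pair differed inside the coding region at the acceptor of a single intron, 61 bases apart, and 0 of the 20 introns of KANSL3-206 were particular to it. In all, KANSL3-201 has 97 exonic bases that KANSL3-206 lacks, and reads within these can separate the pair too. The exon junctions are shown because a read that crosses them separates KANSL3-206 from KANSL3-201. The last 15 bases of the upstream exon are in lower case and the first 15 of the downstream exon in capitals, in GRCh37, minus strand. KANSL3-206 joins across the intron chr2:97297220-97302657 and KANSL3-201 across chr2:97297281-97302657.
KANSL3-206: gcacgaaagtaccatTGAATCAGACGTCCC
KANSL3-201: gcacgaaagtaccatATGATTGTTAAATAC
The junction of KANSL3-206 was shared with 7 other annotated transcripts of the gene and that of KANSL3-201 with 2. How reads were divided between these transcripts was not tested, and KANSL3 values below are those of its 2 listed transcripts and not of the whole gene.

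**Figure D1:**
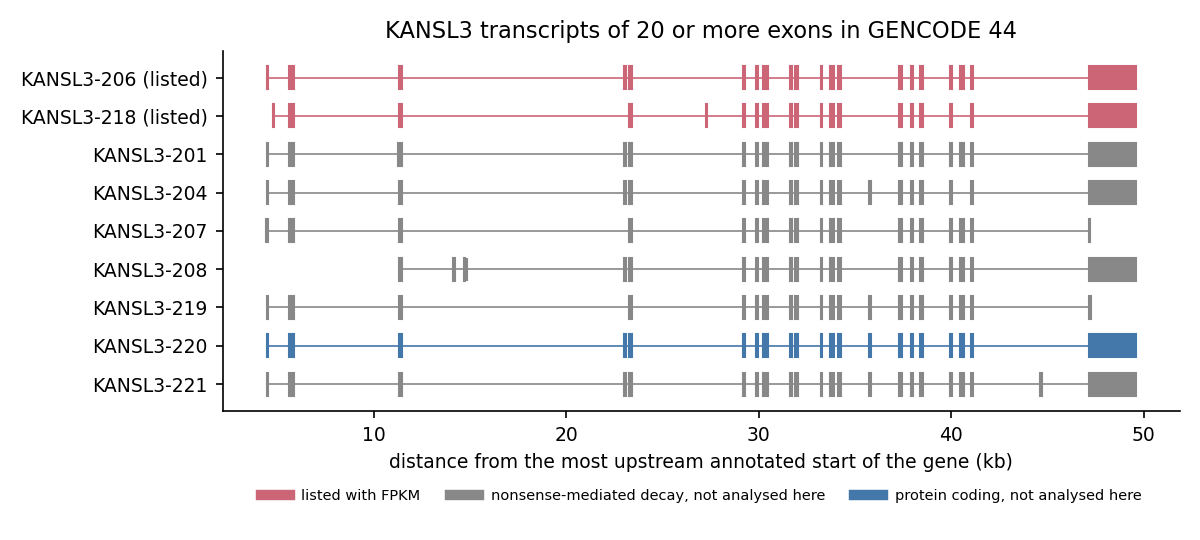
Exons (boxes) of KANSL3 transcripts with 20 or more exons in GENCODE 44, against distance in kb from the most upstream annotated start of the gene; colours give listed transcripts, decay transcripts and the remaining protein-coding transcript. The 2 listed transcripts share most exons with transcripts that were not analysed here.

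Facts of the whole series were as follows. FPKM summed to 370253.5 and 374278.4 in the shCtrl samples and to 390224.4 and 382016.4 in the shKIAA1429 samples. Transcripts listed at 0 numbered 810 and 1003 in shCtrl and 1492 and 1277 in shKIAA1429. Both measures differed between the groups without overlap, and their part in the values near 0 was not tested. Read depth is unknown, so counting error could not be given. VIRMA was at 9.37 and 14.1 FPKM (shCtrl) and 6.90 and 8.52 FPKM (shKIAA1429), which gave -0.53 (SE 0.24) as log2 fold change and 0.917 as adjusted p-value in limma. Of 8 hepatocyte markers only SERPINA1 was listed, at 3.34 to 5.63 FPKM, and ALB, AFP, APOA1, APOA2, APOB, FGB and TTR had no value, whereas KRT8 and KRT18 of the epithelial list summed to between 2089.4 and 2206.1 FPKM. Of the fibroblast list 4 of 5 were listed, at sums of 67.9 to 74.4 FPKM and mostly COL3A1, of the leukocyte list 2 of 4, CD68 and CD14, at 46.7 to 56.3 FPKM, and of the endothelial list 0 of 3. CD3E and PTPRC of the leukocyte list had no value, and neither had CDH1 and EPCAM, the remaining markers of the epithelial list. The sums of the epithelial, fibroblast and leukocyte lists overlapped between the groups, whereas SERPINA1 was at 4.42 and 3.34 FPKM in control cells, 5.63 and 4.70 FPKM in knockdown cells; its part in the results was not tested. LUM, in the fibroblast list, was at 7.92 and 7.04 FPKM with the control hairpin and at 2.73 and 2.88 FPKM with the other, and its part was not tested either.

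KANSL3 was nearly absent from the listed values in shCtrl and clearly present in shKIAA1429. Summed over both transcripts, it reached 0.0139 and 0.748 FPKM with the control hairpin and 8.88 and 8.26 FPKM with the KIAA1429 hairpin. Both knockdown values lay far above both control values, and the control replicates themselves differed more than the knockdown replicates. Averaged by group, this was 0.381 ± 0.519 against 8.57 ± 0.437 FPKM (SD, n = 2 each). On the scale of log2(FPKM + 1), which damps changes of low genes, the log2 fold change was 2.84 (SE 0.29). Leaving out shCtrl replicate 1 gave 2.45 and leaving out shCtrl replicate 2 gave 3.24, and it was 4.80 (SE 0.97) with a pseudocount of 0.1, so that the size of the difference rests on control values close to 0. KANSL3 passed the filter of 1 FPKM in at least 2 samples only through the 2 shKIAA1429 samples.

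Most of the difference lay in KANSL3-206. This protein-coding transcript was at 0.0081 and 0.501 FPKM among controls versus 8.72 and 6.78 FPKM among knockdown samples. KANSL3-218, without a coding region, was at 0.0058 and 0.246 FPKM (shCtrl) and 0.159 and 1.48 FPKM (shKIAA1429). The groups did not overlap for KANSL3-206 and overlapped for KANSL3-218, which was above 1 FPKM in a single knockdown sample. Of the 38510 transcripts, 29 (0.0753%) were under 1 FPKM in both shCtrl samples and at 5 FPKM or more in both shKIAA1429 samples, KANSL3-206 among them, and 46 (0.119%) showed the opposite. The limits of 1 and 5 FPKM were set around KANSL3-206, so its presence and rank among the 29 repeat its selection and are no separate support. For 19 of the 29, the summed level of the gene had a log2 fold change within 0.5 of 0, and for 6 it exceeded 1, with KANSL3 at the top. SIN3A, a co-repressor scaffold that binds OGT, chosen after its values were seen, is a case of the former. SIN3A-201 was at 0.287 and 0.388 FPKM in control cells, 13.5 and 14.6 FPKM in knockdown cells. SIN3A-203 was at 12.9 and 12.6 FPKM among controls versus 0 and 0.0602 FPKM among knockdown samples. The summed log2 fold change of SIN3A was 0.04 (SE 0.15). Whether a KANSL3 transcript fell in exchange could not be seen. Both of its listed transcripts were under 1 FPKM in both shCtrl samples, and its other annotated transcripts were not analysed here.

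Across all 11657 genes tested, KANSL3 had the second highest log2 fold change of all, after the histone gene HIST4H4. HIST4H4 was at 137.4 and 1.85 FPKM (shCtrl) and 144.7 and 167.9 FPKM (shKIAA1429), so its value of 2.98 (SE 1.80) rested on 1 control sample. A log2 fold change over 1 was reached by 58 genes (0.498%) and one below -1 by 67 (0.575%). Requiring both a log2 fold change beyond 1 in size and an adjusted p-value below 0.05, 0 of 11657 genes (0%) passed by limma, with 656 (5.63%) at an unadjusted p under 0.05. With each transcript tested by itself, 0 of 24996 (0%) passed by limma and 1570 (6.28%) had an unadjusted p under 0.05. At the transcript level, 828 (3.31%) had a log2 fold change over 1 and 979 (3.92%) below -1.

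The other 8 subunits did not show a difference of this size. Their log2 fold changes ranged from -0.27 to 0.57, with a median of 0.12, against a median of -0.01 over all genes tested. Groups did not overlap for 3 of the 8 in the higher direction, namely KANSL1, OGT and PHF20, and for 1 in the lower direction, KANSL2. Over all genes tested this held for 16.9% in the higher and 16.7% in the lower direction, or 33.6% in either, so 4 of 8 is read against about 1 gene in 3. None of the 8 reached an absolute log2 fold change of 1. All of the 8 were at 1 FPKM or more in all 4 samples.

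**Figure D2:**
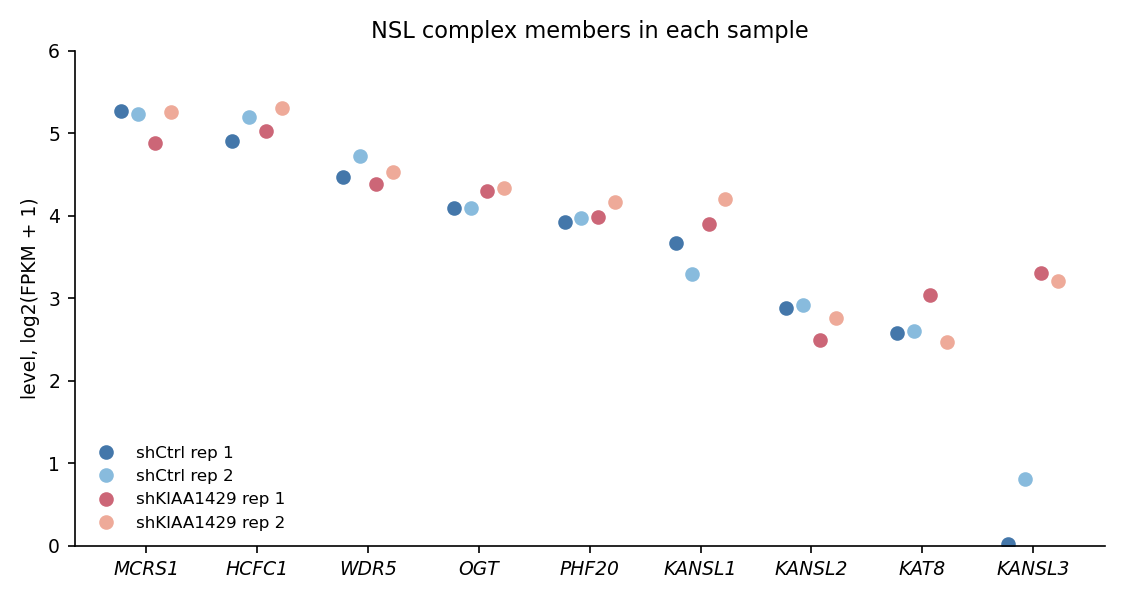
Level of each NSL subunit in each of the 4 samples as log2(FPKM + 1), genes ordered by their shCtrl mean. KANSL3 lies at 0.02 and 0.81 in shCtrl and at 3.30 and 3.21 in shKIAA1429, while the points of each other gene lie within about 1 unit of each other.

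The scaffold and core subunits were compared first. KANSL1 (chr17:44107322-44270166, minus strand, for its main transcript) was at 11.7 and 8.80 FPKM in control cells, 13.9 and 17.5 FPKM in knockdown cells. Both knockdown values were higher, but the replicates of either group were also apart, with means of 10.2 ± 2.05 and 15.7 ± 2.55 FPKM (SD, n = 2 each) and a log2 fold change of 0.57 (SE 0.21). Part of KANSL1 is duplicated on some copies of chromosome 17, so its reads may be shared with a near-identical copy and its value is uncertain. KANSL2 (chr12:49047199-49076008, minus strand) was at 6.39 and 6.54 FPKM among controls versus 4.64 and 5.78 FPKM among knockdown samples, that is, -0.27 in log2 fold change (SE 0.17). Its 2 control values were close to each other, and the lower of its knockdown values stood apart from the rest. The 3 KANSL genes thus differed in sign and in size.

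KAT8, the catalytic subunit (chr16:31127075-31142714, plus strand), was at 4.95 and 5.06 FPKM (shCtrl) and 7.23 and 4.52 FPKM (shKIAA1429). The knockdown values fell on either side of the controls, and the log2 fold change was 0.17 (SE 0.23). MCRS1 (chr12:49952146-49961884, minus strand), a forkhead-associated domain protein, was at 37.6 and 36.5 FPKM in control cells, 28.5 and 37.4 FPKM in knockdown cells. Only shKIAA1429 replicate 1 was low, and the groups overlapped. PHF20, the methyl-lysine reader (chr20:34359905-34538303, plus strand), was at 14.2 and 14.7 FPKM among controls versus 14.8 and 16.9 FPKM among knockdown samples. The upper shCtrl value and the lower shKIAA1429 value nearly met, with a log2 fold change of 0.12 (SE 0.15).

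Among the subunits that serve other complexes, OGT (chrX:70752973-70793666, plus strand) had the tightest replicates. It was at 16.1 FPKM in both shCtrl samples and at 18.8 and 19.3 FPKM in shKIAA1429. Its means were 16.1 ± 0.0089 and 19.0 ± 0.344 FPKM (SD, n = 2 each), that is, 0.22 in log2 fold change (SE 0.13). The replicate SD of OGT on the log2 scale was exceeded by 99.0% of all genes tested, so the moderated SE, which borrows spread from other genes, was far wider than its own replicates gave. HCFC1 (chrX:153213010-153236635, minus strand) was at 28.9 and 35.7 FPKM (shCtrl) and 31.6 and 38.5 FPKM (shKIAA1429). WDR5 (chr9:137001210-137025090, plus strand) was at 21.1 and 25.3 FPKM in control cells, 19.8 and 22.0 FPKM in knockdown cells. The groups of both genes overlapped, with log2 fold changes of 0.12 (SE 0.18) and -0.14 (SE 0.16).

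**Figure D3:**
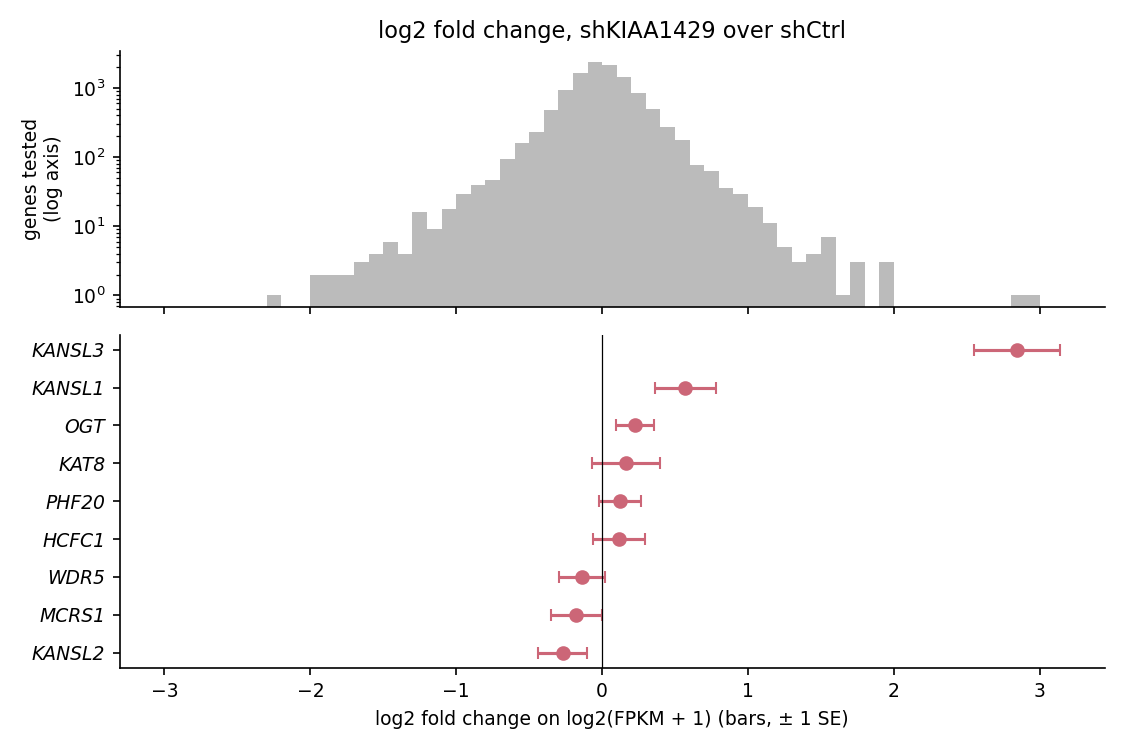
Above, the number of genes tested per bin of log2 fold change (shKIAA1429 over shCtrl, log count axis); below, the log2 fold change of each NSL subunit with ± 1 SE from limma. KANSL3 at 2.84 lies at the right edge of the distribution and the other 8 lie between -0.27 and 0.57.

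Since FPKM is scaled to length, the summed levels of the listed transcripts could also be ordered between subunits. These sums cover unlike parts of the genes, from 2 of 21 transcripts in GENCODE 44 for KANSL3 to 3 of 4 for HCFC1. The order is therefore one of the listed sums and not of whole genes. In shCtrl the order of the means was MCRS1 at 37.04, HCFC1 at 32.3, WDR5 at 23.2, OGT at 16.1, PHF20 at 14.4, KANSL1 at 10.2, KANSL2 at 6.47, KAT8 at 5.003 and KANSL3 at 0.381 FPKM. No neighbours in this order overlapped in their 2 shCtrl values. In shKIAA1429, HCFC1 at 35.1 FPKM stood above MCRS1 at 33.0 FPKM with overlapping values, and OGT, PHF20 and KANSL1 followed WDR5, of which PHF20 and KANSL1 overlapped. KANSL3, at 8.57 FPKM, stood above KAT8 at 5.87 and KANSL2 at 5.21 FPKM, whose values overlapped each other.

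KANSL3 was then set against its complex within each sample. The other 8 subunits summed to 141.0 and 148.7 FPKM in shCtrl and to 139.3 and 161.9 FPKM in shKIAA1429, ranges that overlapped. KANSL3 made up 0.00987% and 0.5003% of the summed FPKM of all 9 in shCtrl, and 5.99% and 4.86% in shKIAA1429. On the log2(FPKM + 1) scale, the level of KANSL3 minus the median level of the other 8 was -3.99 and -3.23 in shCtrl, and -0.84 and -1.06 in shKIAA1429, a mean difference of 2.66. That median itself was 4.01 and 4.04 in shCtrl and 4.14 and 4.27 in shKIAA1429. The distance of KANSL3, as listed, from its complex thus differed between the groups without overlap, while the levels of its partners differed by far less. This difference was not tested, because KANSL3 was selected on this comparison, and 2 samples against 2 could not have given an exact two-sided permutation p below 0.333.

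The 5 genes whose pattern over the 4 samples was nearest to that of KANSL3, by Euclidean distance between centred log2(FPKM + 1) values among 7476 genes with a mean of at least 5 FPKM, were GATA3, KRT7, JPT2, MLST8 and GPX1, at distances of 1.24, 1.34, 1.40, 1.41 and 1.49. GATA3 (a transcription factor) was at 9.80 and 8.85 FPKM among controls versus 34.1 and 35.3 FPKM among knockdown samples. The row of GATA3-201 and a row of KCTD20 were the only 2 that broke the sorting by identifier, and when their identifiers were exchanged, an alternative chosen after seeing the data, GATA3 had 0.14 in place of 1.79 as log2 fold change. Whether the rows were exchanged was not tested. Separately, the study reported higher GATA3 RNA by qPCR and protein by western blot after KIAA1429 knockdown in HCCLM3 cells. The rows of the 9 NSL genes stood in order. KRT7, a keratin, was at 14.3 and 23.2 FPKM (shCtrl) and 48.5 and 62.7 FPKM (shKIAA1429). MLST8, a subunit of the mTOR complexes, was at 2.64 and 2.34 FPKM in control cells, 9.42 and 9.54 FPKM in knockdown cells. GPX1, a glutathione peroxidase, was at 38.7 and 32.2 FPKM against 140.8 and 87.0 FPKM, and JPT2 at 6.59 and 6.93 FPKM against 19.5 and 25.4 FPKM. All 5 had a log2 fold change over 1, at 1.55 to 1.79, below that of KANSL3. None of the other 8 subunits was among these genes: 170 of the 7476 genes were nearer to KANSL3 than KANSL1 was, 814 nearer than OGT, and between 1314 and 6505 nearer than the remaining 6. The distances were taken over the same 4 samples in which KANSL3 was put forward. A distance here cannot be smaller than the difference in log2 fold change, so genes this near had to have high values. The ranks thus largely repeat the log2 fold changes and are no separate support.

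The listed transcripts were then examined one by one. Of the 33 listed transcripts of the other 8 genes, 12 were higher and 4 lower in both shKIAA1429 samples than in both shCtrl samples, against 18.5% and 16.6% of all 38510 listed transcripts. Among the 12, HCFC1-203, KANSL1-203, KANSL1-224, MCRS1-210 and OGT-203 were under 1 FPKM in every sample, as was KANSL2-215 among the 4. Of all 35, 20 passed the filter of 1 FPKM in at least 2 samples, and KANSL3-206, KANSL1-225 and KAT8-201 did so only through the 2 shKIAA1429 samples. Of the 20, 6 were higher, these 3 among them, 3 were lower and 11 overlapped. Over all 24996 transcripts that passed, 16.7% were higher and 16.8% lower. Shares of the most abundant transcript in its gene's sum could be given for KANSL3 and 7 partners. For KANSL3-206 the share was 58.2% and 67.0% in shCtrl and 98.2% and 82.1% in shKIAA1429, but the shCtrl shares are ratios of values near 0 and are not counted here. Among the 7 partners the shares did not overlap between the groups for 4, against 35.7% of 8500 genes. Their mean share differed by 10 percentage points or more for 3, KAT8, MCRS1 and KANSL2, and for 36.0% of the 8500 genes.

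KAT8 had the largest difference in share of the 7 partners. KAT8-206 (ENST00000543774.6_1), whose first exon starts upstream of that of the other full-length transcripts, made up 82.7% and 62.6% of KAT8 in shCtrl and 45.3% and 37.6% in shKIAA1429. Its own level was 4.09 and 3.17 FPKM in shCtrl and 3.28 and 1.70 FPKM in shKIAA1429, which overlapped. KAT8-201 was at 0.408 and 0.779 FPKM among controls versus 1.12 and 1.90 FPKM among knockdown samples, without overlap. Both are protein coding. A change of share at least as large as that of KAT8 was found in 7.62% of the 8500 genes.

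The main transcript took a smaller share of MCRS1 and a larger share of KANSL2 in shKIAA1429. MCRS1-211 was at 21.3 and 14.01 FPKM (shCtrl) and 8.24 and 12.4 FPKM (shKIAA1429), or 56.6% and 38.4% against 28.9% and 33.3% of the gene. MCRS1-202 was at 2.92 and 4.39 FPKM in control cells, 4.07 and 9.03 FPKM in knockdown cells, and only the last of these stood out. KANSL2-201, the main coding transcript, varied little, at 4.63 and 4.46 FPKM among controls versus 4.46 and 4.42 FPKM among knockdown samples. KANSL2-215 was at 0.513 and 0.582 FPKM in shCtrl and was listed at 0 in both shKIAA1429 samples, and the processed KANSL2-209 had 1.245 and 1.495 FPKM in control and 0.179 and 1.36 FPKM in knockdown cells. Most of the lower sum of KANSL2 thus lay in its 2 minor transcripts.

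KANSL1 and PHF20 held several transcripts without a coding region. KANSL1-201 was at 7.43 and 3.33 FPKM (shCtrl) and 8.75 and 10.2 FPKM (shKIAA1429), and accounted for most of the difference in the gene's sum. The other 7 KANSL1 transcripts ranged from 0.218 to 2.25 FPKM over all samples, the highest being KANSL1-225 in shKIAA1429 replicate 2. PHF20-203, the coding transcript, was at 8.70 and 8.19 FPKM in control cells, 9.80 and 8.32 FPKM in knockdown cells. PHF20-211, a processed transcript, was at 0.0655 and 0.168 FPKM among controls versus 0.272 and 3.25 FPKM among knockdown samples, so that 1 sample made up most of the difference in the sum of PHF20.

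**Figure D4:**
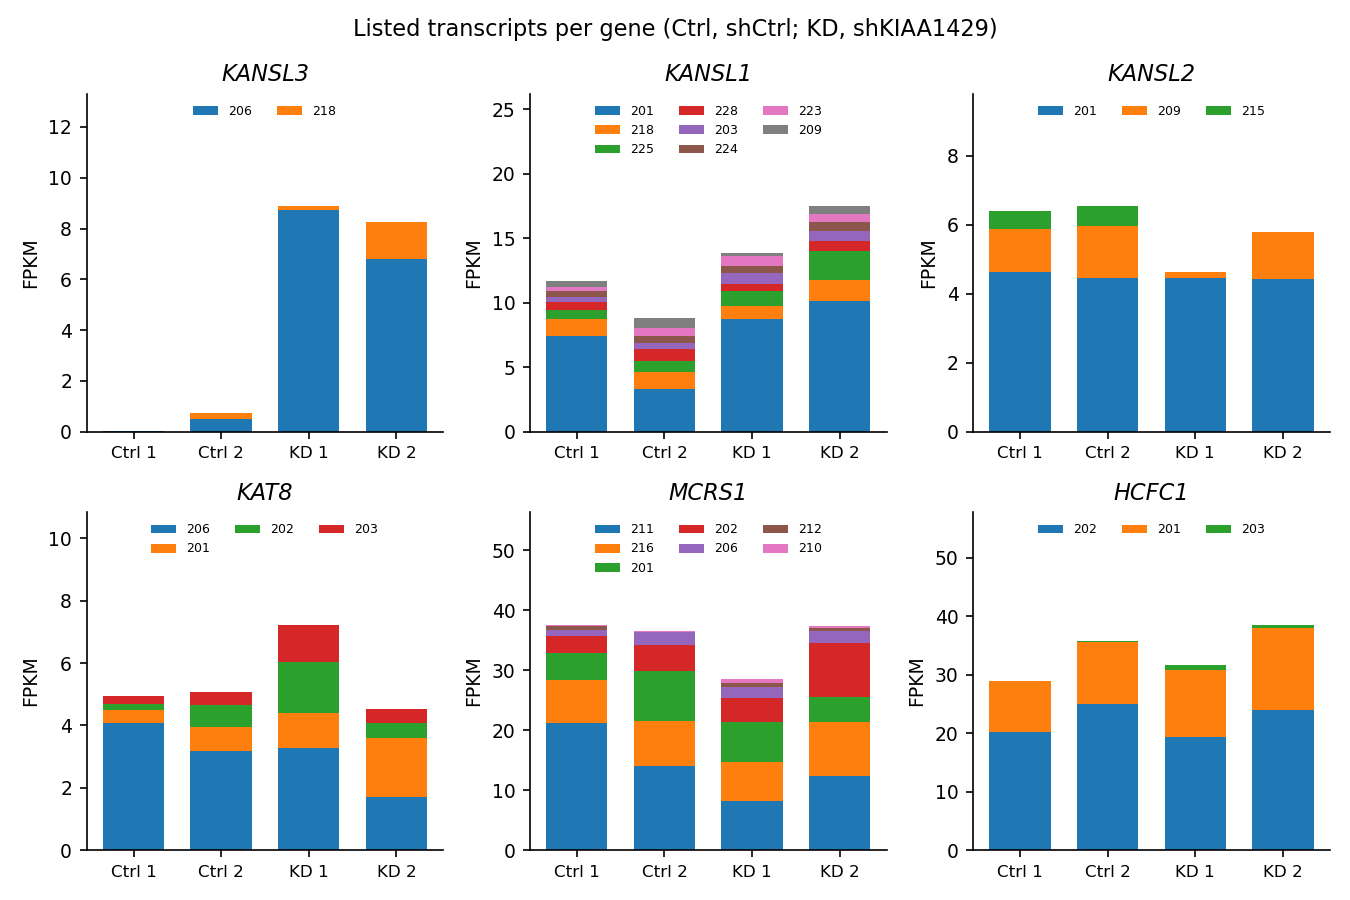
Stacked FPKM of the listed transcripts of 6 NSL subunits in the 4 samples (Ctrl, shCtrl; KD, shKIAA1429), each colour a transcript given by its number. KANSL3 is carried by KANSL3-206 in both knockdown samples, and the main transcripts of KAT8 and MCRS1 take a smaller share of the bar there.

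For HCFC1 and OGT the 2 main transcripts each encode a full-length protein and differ by short stretches inside the coding region. Each pair also differs by more bases outside it. OGT-202 holds all 3310 exonic bases of OGT-201 and 2125 others. HCFC1-201 holds 636 exonic bases that HCFC1-202 lacks, and lacks 135 that HCFC1-202 holds. How reads were divided within each pair was not tested. The junctions of these forms are shown because they mark the alternative splice sites between them, with the downstream exon in capitals as before. OGT-202 takes an acceptor 30 bases upstream of that of OGT-201 and has a coding region of 3138 bases against 3108. OGT-201 joins across chrX:70753187-70756057 and OGT-202 across chrX:70753187-70756027, both on the plus strand.
OGT-201: tggccgacagcacagGGTTAGCTGAGTTGG
OGT-202: tggccgacagcacagAACCAACGAAACGTA
OGT-201 was at 10.5 and 9.26 FPKM (shCtrl) and 11.7 and 12.3 FPKM (shKIAA1429), without overlap. OGT-202 was at 5.05 and 5.99 FPKM in control cells, 5.43 and 5.96 FPKM in knockdown cells. The share of OGT-201 was 64.8% and 57.4% against 62.3% and 63.9%, and the groups overlapped. The decay transcript OGT-213 contains all 3310 exonic bases of OGT-201 and was not analysed here.

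HCFC1-201 and HCFC1-202 have coding regions of 6105 and 6240 bases and differ at 2 introns on the minus strand. At the larger difference HCFC1-201 joins across chrX:153218410-153219057 and HCFC1-202 across chrX:153218542-153219057.
HCFC1-201: ggcccctctgtgccgCCCCCAGAGGAACTC
HCFC1-202: ggcccctctgtgccgAAGATCTCATCAATG
HCFC1-201 was at 8.71 and 10.6 FPKM among controls versus 11.5 and 13.97 FPKM among knockdown samples, without overlap. HCFC1-202 was at 20.2 and 25.1 FPKM (shCtrl) and 19.4 and 23.95 FPKM (shKIAA1429), with overlap. The share of HCFC1-202 was 69.7% and 70.2% in shCtrl and 61.2% and 62.1% in shKIAA1429, a drop larger than the difference between replicates of either group, and a change of this size or more was found in 41.1% of the 8500 genes. WDR5 had a single listed transcript, WDR5-201, so no share could be computed.

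Sequence features of the members were examined as a description. GGAC, the core of the motif in which m6A is commonly written, occurred 25 times in KANSL3-206, or 4.85 per kb, where the median over the main transcripts of 12667 genes was 3.70 per kb. Across the 9 main transcripts it ranged from 2.42 per kb in OGT-201 to 8.26 per kb in MCRS1-211, with KAT8-206 at 7.04. KANSL3 thus lay within the range of its partners. RefSeq promoter windows (GRCh38.p14, both strands searched) matched 7 of the 9 genes with 13 windows, and TATAAA occurred in 0 of the 13, against 11.5% of 35116 windows. CCGGAAG, an ETS core, occurred in 2 (KANSL3 and WDR5) against 10.3%, and GCGCATG, part of the NRF1 motif, in 1 (OGT) against 4.43%. The number of CG dinucleotides was above the median of all windows, 14, in 11 of the 13. It was 12 in the window of MCRS1 and 6 in a window of WDR5. WDR5, KANSL1 and KANSL3 each had more than 1 window and KAT8 and HCFC1 had none, so counts of windows are not counts of genes.

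Genes that share a subunit, substrate or enzymatic role with the NSL complex were then examined in 9 lists. Of their 93 distinct genes tested, 0 passed both thresholds in either direction, the smallest adjusted p-value by limma was 0.587, and 4 had an unadjusted p under 0.05. The median log2 fold change of the 93 was -0.00096, and groups did not overlap for 13 higher and 13 lower genes, no larger a share than the 16.9% and 16.7% over all genes tested.

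The MSL complex is the other complex built on KAT8. Its log2 fold changes were 0.72 (SE 0.18) for MSL3, 0.22 (SE 0.19) for MSL1 and 0.0037 (SE 0.14) for MSL2. MSL3, a chromodomain subunit, was at 3.37 and 4.29 FPKM in control cells, 6.31 and 7.57 FPKM in knockdown cells, with a limma adjusted p-value of 0.689. The groups overlapped for MSL1 and MSL2, and 0 of the 3 passed in either direction. The 13 MYST acetyltransferases and partners in the HBO1 and MOZ complexes had a median of -0.0012 and none passed. KAT7, the catalytic subunit of HBO1, was at 19.3 and 21.1 FPKM against 16.5 and 18.3 FPKM, and KAT6A, that of MOZ, at 11.8 and 10.8 FPKM against 10.3 and 10.7 FPKM.

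For TIP60/NuA4, another acetyltransferase of histone H4, 17 of 18 genes were tested, with a median of 0.0090 and 0 passing in either direction. VPS72, a histone chaperone subunit, was at 15.7 and 23.0 FPKM among controls versus 37.8 and 37.02 FPKM among knockdown samples, which gave 0.94 (SE 0.21) in log2 fold change and 0.587 as adjusted p-value in limma. VPS72-202 was at 3.84 and 8.60 FPKM against 37.4 and 36.6 FPKM, and VPS72-201 at 11.4 and 13.7 FPKM against 0.0391 and 0.0616 FPKM. EPC2, a scaffold, was at 6.61 and 6.12 FPKM against 5.98 and 5.88 FPKM. The 15 COMPASS genes, partners of WDR5, had a median of -0.0079, with ASH2L at 7.21 and 7.76 FPKM against 8.50 and 8.76 FPKM and KMT2B at 11.9 and 13.376 FPKM against 13.384 and 13.6 FPKM, and 0 passed.

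Of 16 partners of HCFC1 and OGT, 15 were tested, with a median of -0.02 and 0 passing. E2F4, a transcription factor of cell cycle genes, was at 10.1 and 7.73 FPKM (shCtrl) and 28.1 and 13.6 FPKM (shKIAA1429), which gave 1.07 (SE 0.36) in log2 fold change and 0.871 as adjusted p-value in limma. The 2 knockdown values of E2F4 were further apart than its 2 group means. BAP1, a deubiquitinase that binds HCFC1, was at 24.4 and 23.8 FPKM against 23.4 and 19.5 FPKM.

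The 7 genes listed as deacetylases of histone H4 (SIRT1, SIRT2, SIRT3, SIRT6, HDAC1, HDAC2 and HDAC3) had a median of -0.18, with 5 below 0 and 0 passing. This median was -0.08 without shKIAA1429 replicate 2, -0.10 without shCtrl replicate 1 and -0.29 without shKIAA1429 replicate 1. HDAC2 was at 7.92 and 18.5 FPKM in control cells, 2.91 and 6.59 FPKM in knockdown cells, that is, -1.27 in log2 fold change (SE 0.49). Its samples differed by replicate number as well, because HDAC2-206 was listed at 0 in replicate 1 of both groups and was at 16.2 FPKM in shCtrl replicate 2 and at 4.77 FPKM in shKIAA1429 replicate 2. HDAC3 was at 19.0 and 18.7 FPKM against 18.4 and 15.04 FPKM.

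The 11 spindle partners of KANSL3 and MCRS1 had a median of -0.07, 9 of them below 0, and 0 passed. The sign of this median was not stable, at 0.16 without shKIAA1429 replicate 1, 0.08 without shCtrl replicate 2, -0.23 without shCtrl replicate 1 and -0.25 without shKIAA1429 replicate 2. TPX2, which targets kinases to the spindle, was at 58.4 and 81.1 FPKM among controls versus 52.5 and 88.8 FPKM among knockdown samples, with overlap; TPX2 is named after its values were seen. AURKA, the kinase it activates, was at 37.7 and 53.0 FPKM against 36.3 and 33.9 FPKM, that is, -0.34 in log2 fold change (SE 0.20), and CLTC, clathrin heavy chain, was at 98.3 and 101.8 FPKM against 84.7 and 95.4 FPKM. Of the 2 paralogs, PHF20L1 was tested, at -0.27 (SE 0.22) with overlapping groups, and KANSL1L was not. The 13 mitochondrially encoded proteins, examined because KAT8 has been placed in mitochondria as well, had a median of 0.12, with 12 above 0 and 0 passing. Groups did not overlap in the higher direction for 6 of the 13, against 16.9% of all genes tested. MT-CYB was at 2707.3 and 2550.1 FPKM against 3522.0 and 2871.8 FPKM, and MT-ATP6 at 882.7 and 877.6 FPKM against 1126.2 and 980.4 FPKM; the median of the list was 0.03 without shKIAA1429 replicate 1.

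**Figure D5:**
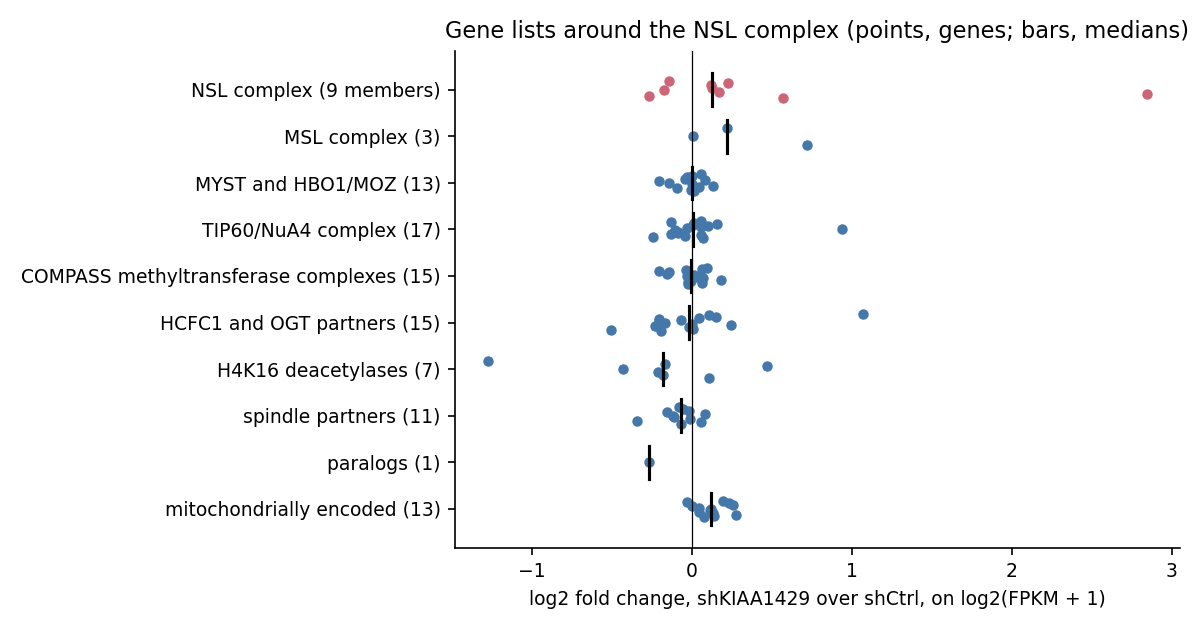
Log2 fold change (shKIAA1429 over shCtrl) of each gene tested in the NSL complex and in 9 lists around it; black bars are medians and numbers in brackets are genes tested. KANSL3 at 2.84 is the right-most point, and of the 93 genes in the lists only HDAC2 and E2F4 lie beyond 1 on either side.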

How the data were processed

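The authors deposited FPKM values for each annotated transcript of 2 shCtrl and 2 shKIAA1429 samples of HCCLM3 cells on GRCh37. Their methods name TopHat for alignment and HTSeq for counting; the tool that gave FPKM is not given in the sources used here. Counts, and therefore depth, were not analysed here, so no count test was run. The planned log-scale test was used: FPKM was summed per gene identifier, genes with at least 1 FPKM in at least 2 samples were kept, and log2(FPKM + 1) was fitted with limma 3.58.1 in R 4.3.3 with Benjamini-Hochberg adjustment. Transcript structures were taken from GENCODE 44 (lifted to GRCh37), which matched 97.2% of the listed transcripts, and junctions were read with pysam 0.24.0. The script was tested on simulated data. The members and lists were chosen with earlier results of these data known. Named were all 9 subunits with their transcripts, the 2 genes of each list with the largest absolute log2 fold change among non-overlapping genes with a mean of at least 5 FPKM, the 5 genes nearest to KANSL3, and VIRMA. Alternatives were other scalings, filters and pseudocounts, a replicate block and leaving out each sample.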

Additional observations from a re-analysis of the deposited data

How the results depend on the processing

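With a pseudocount of 0.1 in place of 1, the log2 fold change of KANSL3 was 4.80 and its difference from the median of the other 8 subunits 4.61. Leaving out 1 sample at a time, these ranged from 2.45 to 3.24 and from 2.28 to 3.04, and the median log2 fold change of the other 8 from 0.0070 (without shKIAA1429 replicate 2) to 0.165; without shCtrl replicate 1 it was 0.0342. The signs of KAT8, MCRS1 and HCFC1 changed among these fits. The number of genes past both thresholds by limma ranged from 0 to 1, the 1 being HIST4H4 without shCtrl replicate 1, at a log2 fold change of 5.78 and an adjusted p-value of 0.0362. Requiring 1 FPKM in every sample removed KANSL3. No label says what the replicate numbers share; the deviations of same-numbered samples correlated at 0.32 across genes. In a fit that took the replicate block into account, limma called 0 genes and 1269 had an unadjusted p under 0.05 against 656 without it; in this balanced design the block cannot alter a log2 fold change, which for KANSL3 is 2.84 by construction. Leaving out 1 sample also changed the sign of the median for the MYST, TIP60/NuA4, COMPASS, HCFC1 and OGT partner and spindle lists, and moved that of the MSL complex between 0.07 and 0.42. Depth is unknown, so no limit of detection could be given.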
